A study of Arabidopsis thaliana with 12 samples.

Results

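PSAN (AT5G64040) and AT1G22700 (PYG7) are 2 nuclear genes of Arabidopsis thaliana whose products serve photosystem I, and each was read by 1 probe that the platform annotation gives to that gene alone. They were taken by probe number, 85 for PSAN and 920 for AT1G22700, from 3439 probes in all, of which 692 carried 1 gene symbol. Their levels were measured on 12 expression arrays of total RNA, 6 of wild type (WT, ecotype Columbia 0) and 6 of the psan mutant in the same ecotype, which is labelled as lacking the photosystem I protein PSI-N. The sources used here name neither the kind of mutation nor the plant tissue, age and growth conditions. Neither group is labelled with any treatment, and genotype is the 1 factor the labels give. Both genes were selected on their intensities in psan against WT on these same arrays, so every difference between the genotypes in them is given as a description, without a test.

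Photosystem I is the light-driven complex of the thylakoid membrane that takes electrons from plastocyanin in the lumen and passes them to ferredoxin in the stroma. PSI-N, the product of PSAN, is a small subunit on the lumen side, the side where plastocyanin docks. It is made in the cytosol and imported into the chloroplast and then into the lumen. PYG7 is no subunit of the finished complex. It is a thylakoid protein with tetratricopeptide repeats, related to Ycf37 of cyanobacteria, and Arabidopsis plants without it fail to accumulate photosystem I.

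Each array gave 1 intensity per probe on a linear scale in arbitrary units, with a floor at exact 0 and a ceiling of about 100. WT arrays listed 4.68% to 15.1% of their probes at 0, and psan arrays 6.19% to 10.8%. Array medians lay between 0.0970 and 0.195 in WT and between 0.229 and 0.271 in psan, so the middle of the psan arrays was higher as deposited. Array means overlapped, from 0.834 to 0.979 in WT and from 0.904 to 0.980 in psan, so the shift was not the same at every brightness. Within each group, arrays 1 and 2, 3 and 4, and 5 and 6 deviated from the group mean together, with r from 0.401 to 0.601 in WT and from 0.0331 to 0.537 in psan, across 2243 probes above 0 on all arrays. Every other pairing lay at or below 0.0928 in WT and -0.144 in psan. These pairs could be 1 sample measured repeatedly, and no label says that any of the arrays came from separate plants. A p-value given here therefore covers the spread between arrays alone, and that spread may be technical. The number of arrays limits the precision.

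PSAN, the gene of the missing subunit, was bright on every WT array and dim on every psan array. Its deposited intensity on WT arrays 1 to 6 was 4.40, 5.72, 6.51, 5.80, 7.61 and 7.77, a mean of 6.30 ± 1.27 (SD, n = 6). On psan arrays 1 to 6 it was 0.0681, 0.136, 0.243, 0.241, 0.216 and 0.149, a mean of 0.176 ± 0.0697 (SD, n = 6). The groups did not overlap, and the dimmest WT array was 18.1 times as bright as the brightest psan array. In bulk RNA of this kind, fewer cells that express a gene and less of its RNA per cell cannot be told apart.

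AT1G22700, the gene of the assembly factor, ran the other way. Its deposited intensity was 0.0592, 0.0181, 0.0435, 0, 0.0411 and 0.0853 on WT arrays 1 to 6. WT array 4 listed it at 0, and WT array 6 gave its highest WT value. On psan arrays 1 to 6 it was 0.481, 0.303, 0.324, 0.268, 0.302 and 0.350, a mean of 0.338 ± 0.0751 (SD, n = 6). Again the groups did not overlap, and the dimmest psan array was 3.14 times as bright as the brightest WT array.

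**Figure D1:**
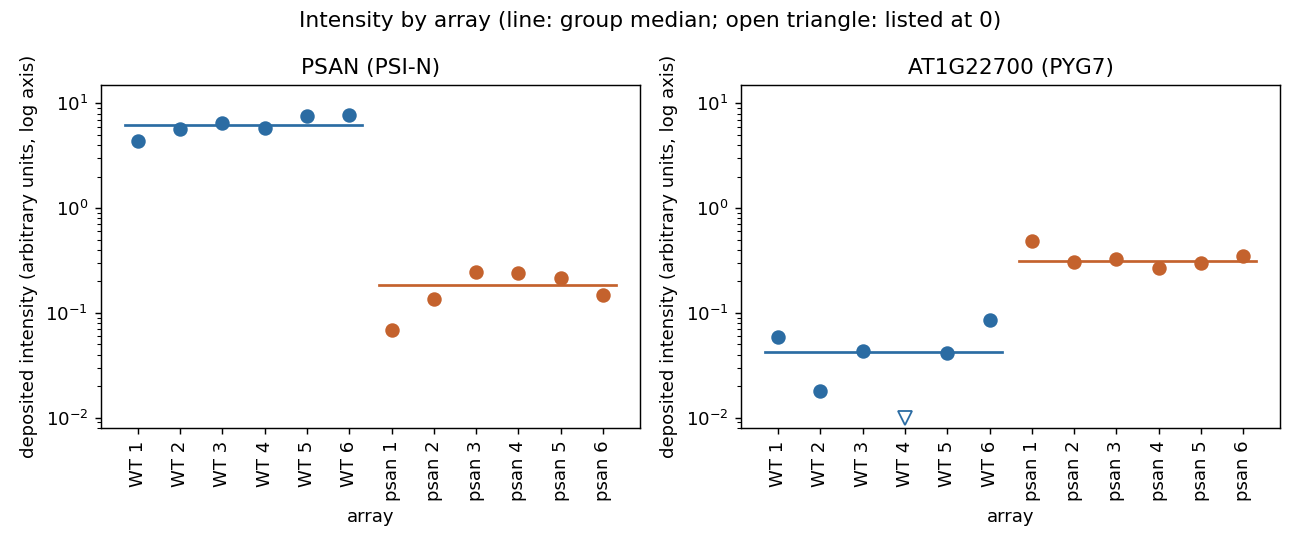
Deposited intensity (arbitrary units, log axis) of PSAN and AT1G22700 on each of the 12 arrays. Points are arrays, blue for WT and orange for psan, lines are group medians and the open triangle is the array that listed the probe at 0. The PSAN medians are 6.16 in WT and 0.183 in psan, and those of AT1G22700 are 0.0423 in WT and 0.314 in psan.

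Among all 3439 probes, deposited intensities did not overlap with psan below WT in 5.26%, the pattern of PSAN, and with psan above WT in 14.3%, the pattern of AT1G22700. As both genes were selected on this contrast, nothing is read from their place in these shares.

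The rank of a probe within its own array does not change when all values of that array are multiplied by 1 factor. PSAN stood at ranks 110, 79, 75, 91, 65 and 68 from the brightest on WT arrays 1 to 6, which is percentile 96.8 to 98.1 of the array, with 100 for the brightest probe. Its ranks on psan arrays 1 to 6 were 2785, 2385, 1664, 1656, 1860 and 2206, or percentile 19.0 to 51.9. The lowest WT percentile and the highest psan percentile of PSAN were 45.0 percentage points apart.

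The residual PSAN signal in psan was above 0 on all 6 arrays. It amounted to 1.08% to 3.86% of the WT mean as deposited. On 4 of the 6 psan arrays it was below the array's median probe, and on psan arrays 3 and 4 it was just above it. Whether it came from a remaining PSAN transcript or from other RNA binding to the probe was not tested, and the sources used here do not place the probe within the gene.

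AT1G22700 stood at ranks 2121, 2656, 2875, 3332, 2949 and 2486 on WT arrays 1 to 6, from percentile 3.11 to 38.3, where rank 3332 is that of a probe listed at 0. On psan arrays 1 to 6 its ranks were 1044, 1576, 1355, 1547, 1500 and 1303, from percentile 54.2 to 69.7. The gene thus moved from the dim part of the array to just above its middle, and the highest WT percentile stayed 15.9 percentage points below the lowest psan percentile. Its highest WT percentile was on WT array 1, where 499 probes were listed at 0, against 161 on WT array 5. Ranks did not overlap with psan below WT in 10.2% of all probes and with psan above WT in 8.90%, and PSAN and AT1G22700 again fell 1 in each.

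**Figure D2:**
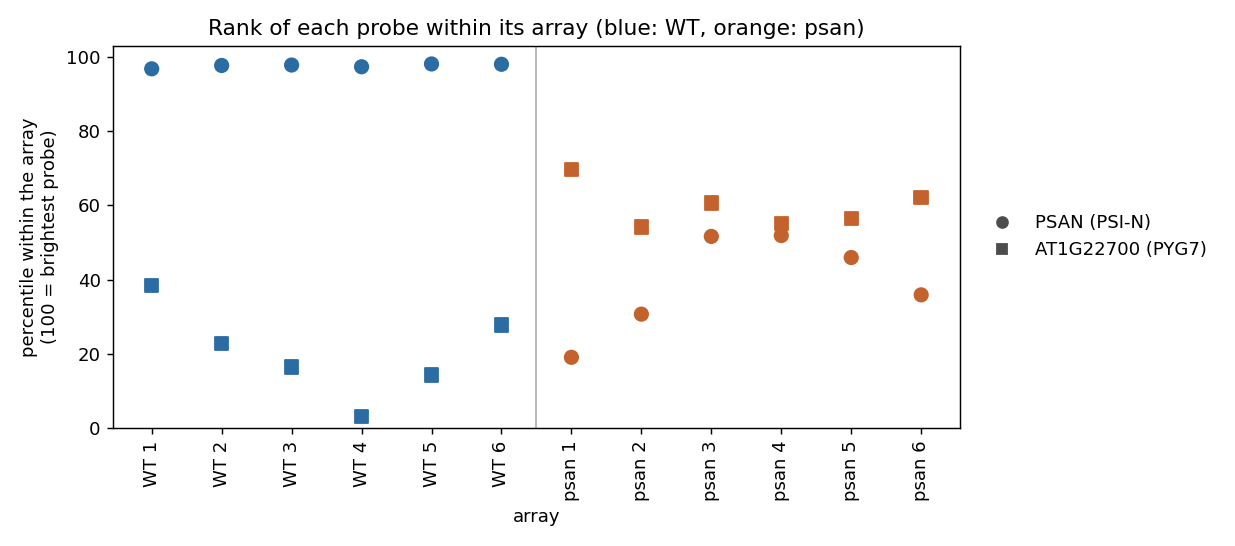
Percentile of the PSAN probe (circles) and the AT1G22700 probe (squares) among the 3439 probes of each array, with 100 for the brightest. PSAN drops from at least 96.8 on the WT arrays (blue) to at most 51.9 on the psan arrays (orange), and AT1G22700 climbs from at most 38.3 to at least 54.2.

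To set the differences on 1 scale, arrays were quantile normalised, probes listed at 0 were left out array by array, and log2 intensities were fitted with limma across all probes. Probes above 0 on at least 1 WT and 1 psan array entered the fit, which holds for both genes and for 3376 probes in all. The log2 difference of PSAN, psan minus WT, was -5.46 ± 0.34 (SE), a 44.2-fold lower intensity. It was the lowest of the 677 single-gene probes tested and number 2 from the lowest of all 3376 probes. That of AT1G22700 was 2.16 ± 0.36 (SE), a 4.46-fold higher intensity, over 5 WT and 6 psan arrays, and it was the 34th highest of the single-gene probes. This fold is not exact, since the probe was near the dim end of the WT arrays. On WT array 2 its deposited intensity of 0.0181 was below the 10th percentile of that array's values above 0 (0.0204), and on WT arrays 3 and 5 it was close to it, at 0.0435 against 0.0396 and 0.0411 against 0.0411. WT array 4, listed at 0, did not enter the fold, and leaving out the lowest value of a group makes its mean higher.

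The size of the AT1G22700 difference depended on the scaling. On the deposited values the log2 differences were 2.92 for AT1G22700, or 7.56-fold, and -5.26 for PSAN. The median difference over all tested probes was 0.46 as deposited and -0.015 after normalisation. With the probes split by brightness into 10 equal classes, AT1G22700 fell in class 5, where the median difference was 0.63 as deposited and -0.048 after normalisation. In class 10, the brightest, which holds PSAN, these medians were 0.018 and 0.0048. These medians show how the scaling shifted each class. Since the 2 genes were selected on psan against WT, nothing is read from their distance to the medians. The classes also did not match either gene in both genotypes. PSAN was at percentile 96.8 to 98.1 of the WT arrays but 19.0 to 51.9 of the psan arrays. AT1G22700 was at 3.11 to 38.3 in WT and 54.2 to 69.7 in psan.

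**Figure D3:**
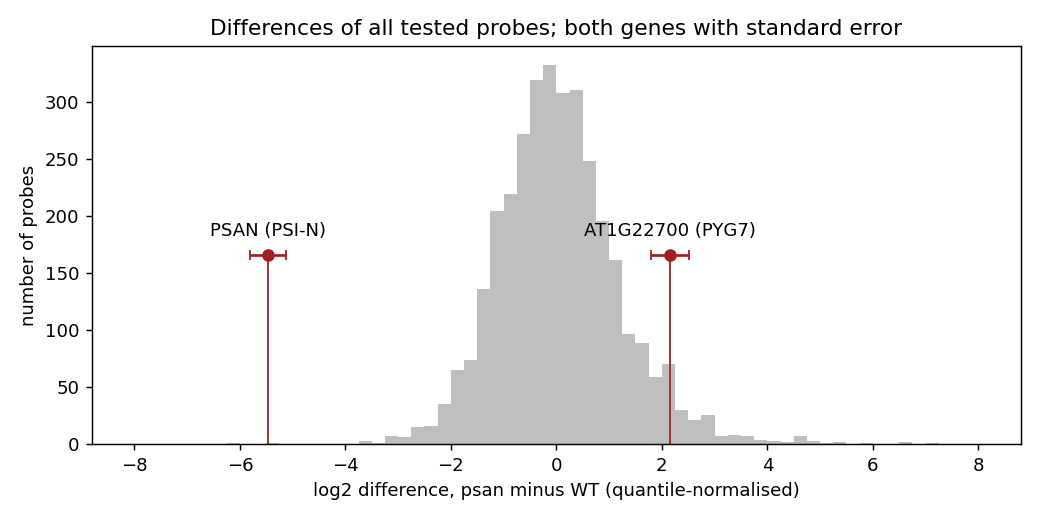
Number of probes by log2 difference (psan minus WT, quantile-normalised intensity) for the 3376 tested probes, with PSAN at -5.46 and AT1G22700 at 2.16 marked with their standard errors. PSAN lies in the far left tail, and AT1G22700 lies in the right shoulder, where 149 probes had a larger rise.

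Differences in these data also varied along the probe number, in a pattern that repeated most closely every 288 numbers. This period was picked from the same differences. Among steps in multiples of 12, it was the one at which they correlated most with themselves, at r = 0.224. Both genes sat in stretches where probes leaned lower in psan. The 126 tested probes sharing the stretch of PSAN had a median log2 difference of -0.50, and the 138 sharing that of AT1G22700 had -0.55. With the effects of the probe number removed from each array, the log2 difference was -4.90 for PSAN and 2.61 for AT1G22700. The correction therefore moved both values upward.

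**Figure D4:**
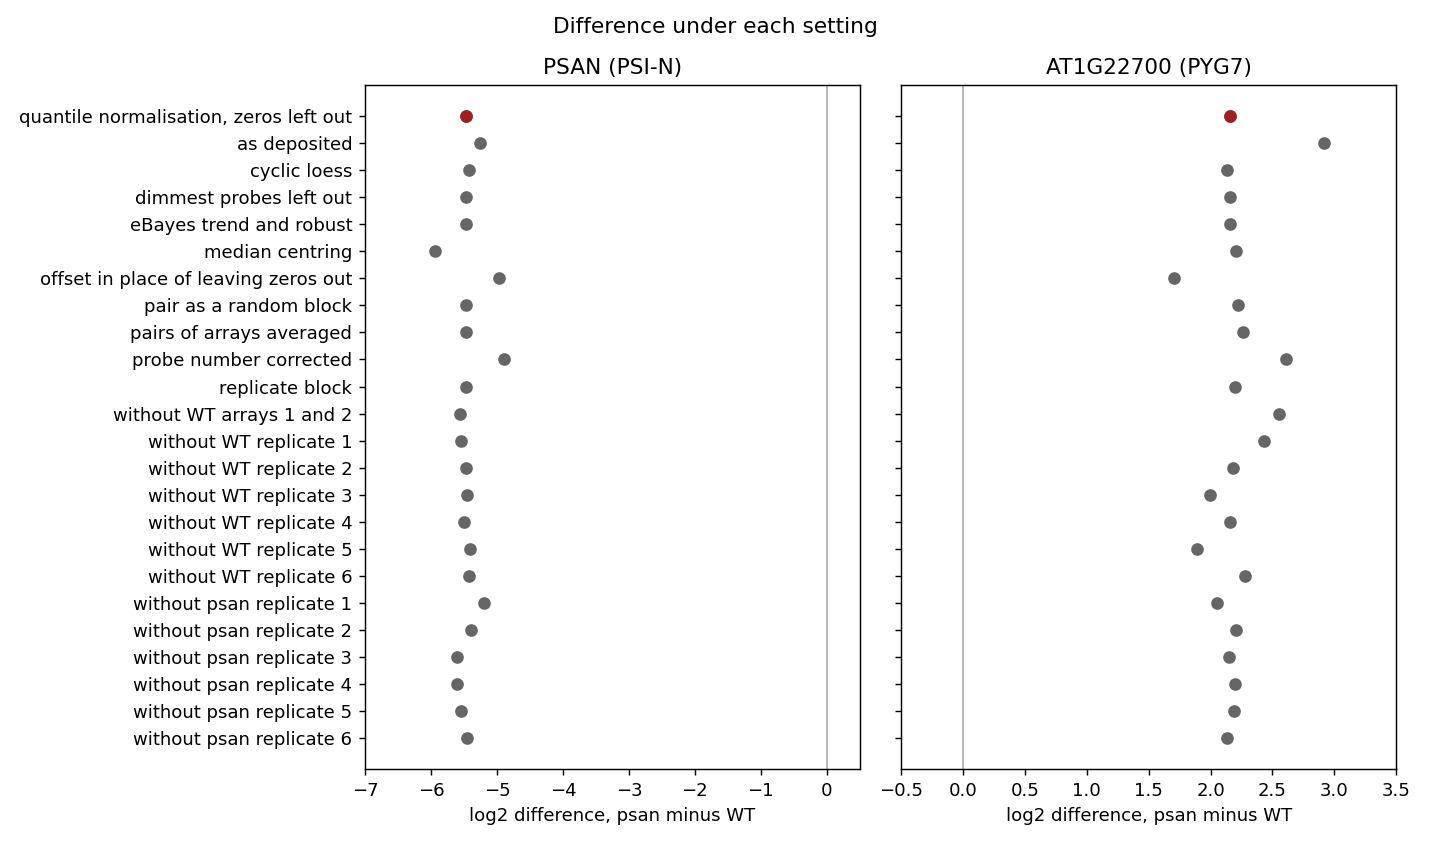
Log2 difference (psan minus WT) of PSAN and AT1G22700 under each scaling, model and left-out array, with the quantile-normalised value in red. PSAN runs from -5.94 to -4.90 and AT1G22700 from 1.71 to 2.92. As the groups do not overlap, leaving out an array could not turn the sign.

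The spread among arrays of a group was large where each gene was dim. As deposited, the coefficient of variation of PSAN was 20.2% in WT and 39.7% in psan. That of AT1G22700 was 72.9% in WT, counting the array listed at 0, and 22.2% in psan. Averaged over neighbouring arrays, PSAN in WT was 5.06 for arrays 1 and 2, 6.16 for 3 and 4, and 7.69 for 5 and 6. In psan the same averages were 0.102, 0.242 and 0.183. For AT1G22700 in psan they were 0.392, 0.296 and 0.326. Psan arrays 1 and 2 were thus the lowest of their group for PSAN and, on average, the highest for AT1G22700. That average was high through psan array 1, at 0.481. Psan array 2, at 0.303, had the lowest AT1G22700 percentile of the psan arrays, 54.2.

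Within psan, where genotype is constant, the log2 values of PSAN and AT1G22700 had Pearson's r = -0.70 over 6 arrays, with an exact permutation p of 0.203 and an adjusted p of 0.717 over 4 relations. Spearman's rho was -0.37, with an exact permutation p of 0.497 and the same adjusted p. All tests of this relation were two-sided. Without psan arrays 1 and 2, the farthest from the median for PSAN, r was -0.62 over 4 arrays. Without psan array 1 alone, which had the lowest PSAN and the highest AT1G22700, it was 0.071 over 5 arrays. The value thus moved widely with the arrays left out.

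Within WT, AT1G22700 gave a log2 value on only 5 arrays, and a relation was tested only over 6. With an offset of 0.05 added to every value, which keeps all 6, Pearson's r was -0.20 (exact permutation p = 0.717) and Spearman's rho was -0.26 (exact permutation p = 0.658), each with an adjusted p of 0.717. Without WT arrays 1 and 5, the farthest from the median for PSAN, r was 0.90 over 4 arrays. No relation between the 2 genes within a genotype was thus detectable with these arrays, and with 3 pairs of like arrays in each group the number of independent values may be lower still. No r is given over both genotypes, since they form separate clusters.

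**Figure D5:**
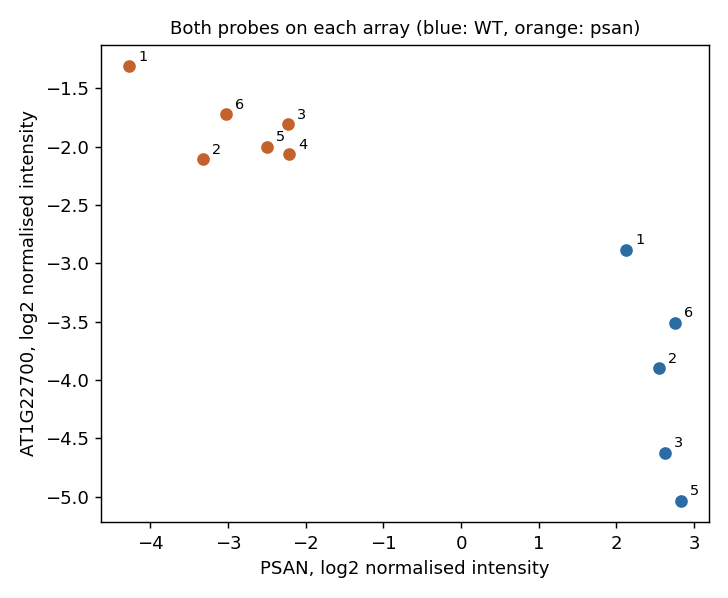
Log2 normalised intensity of PSAN (horizontal) against AT1G22700 (vertical) on the 11 arrays where both were above 0, numbered by array, blue for WT and orange for psan. The genotypes form 2 clusters at opposite corners, and within psan array 1 stands at the upper left.

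Of 427 single-gene probes above 0 on all 12 arrays, those whose log2 values followed PSAN most closely over the 12 arrays were CYN, AT2G39000, AT1G15140, AT3G21810 and AT1G04420, with r from 0.957 to 0.986. CYN is cyanase, the enzyme that breaks down cyanate. All 5 share with PSAN a step down between the genotypes, with log2 differences from -2.25 to -1.77, and the r over 12 arrays includes that step. Inside the groups the likeness was uneven. CYN and PSAN had r = 0.83 over the 6 psan arrays but -0.84 over the 6 WT arrays. AT1G04420 and PSAN had r = 0.91 in psan and 0.80 in WT. As the 5 were picked from 427 by their r over these same arrays, the values inside the groups are part of that choice. They were not tested.

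The probes closest to AT1G22700, over the 11 arrays where it was above 0, were AT1G74470, OTP70, AT4G33760, AT1G27610 and CRR41, with r from 0.894 to 0.922. As for PSAN, this r spans both genotypes and so includes the step on which AT1G22700 was selected. AT1G74470 is annotated as geranylgeranyl reductase, OTP70 as an organelle transcript processing gene and CRR41 as a chlororespiratory reduction gene. AT1G74470 had a mean deposited intensity of 1.35 ± 0.166 (SD, n = 6) on the WT arrays and 2.60 ± 0.219 (SD, n = 6) on the psan arrays, and a log2 difference of 0.86 after normalisation. CRR41 had 0.0875 ± 0.0343 (SD, n = 6) in WT, 0.387 ± 0.0948 (SD, n = 6) in the mutant and a log2 difference of 1.65. Over the 6 psan arrays alone, AT1G74470 had r = 0.69 with AT1G22700, CRR41 had 0.21 and AT1G27610, with a log2 difference of 2.86, had -0.13. Over the 5 WT arrays where AT1G22700 was above 0, AT1G74470 had r = 0.59, CRR41 0.81 and AT1G27610 0.46. As these probes were picked by r over the same arrays, the values inside the groups are a description and were not tested.

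Other genes taken to build, feed or surround photosystem I were looked up in 7 lists. These covered subunits, antenna proteins, assembly factors, electron carriers, thylakoid targeting factors, state transition genes and plastid tetratricopeptide repeat proteins. With 2 lists of seed and root markers, the lists held 74 genes, of which 3 were measured through a single-gene probe. They were ATAB2 and AT1G54500 (RBD1) of the assembly list and SECE1 of the targeting list. A place in a list is no result of these data, and whether AT1G54500 acts on photosystem I was not tested. In the limma fit 0 of the 3 passed an adjusted p of 0.05 and 1 had an unadjusted p under 0.05, where 29.9% of all tested probes passed the adjusted threshold, 14.3% higher and 15.6% lower in psan. None of the 11 photosystem I subunits other than PSI-N, and none of the 6 LHCI antenna genes, was among the single-gene probes, and neither were the seed and root markers.

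AT1G54500 is the gene that had the unadjusted p under 0.05. Its deposited intensity on WT arrays 1 to 6 was 0.510, 1.11, 0.847, 0.783, 0.548 and 0.948, and on psan arrays 1 to 6 it was 1.48, 1.58, 1.12, 1.40, 1.04 and 1.07. The groups overlapped through WT array 2. Its log2 difference was 0.54 with a standard error of 0.24 and a limma adjusted p of 0.107. It passed on the values as deposited (0.73, limma adjusted p = 0.0383), with the probe number corrected (0.99, limma adjusted p = 0.0101), without WT array 2 (0.68, limma adjusted p = 0.0355) and without WT arrays 1 and 2 (0.67, limma adjusted p = 0.0479). With median centring its log2 difference was 0.056 (limma adjusted p = 0.893), and with pairs averaged its limma adjusted p was 0.333.

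ATAB2, a factor for the synthesis of photosystem proteins encoded in the plastid, had a deposited intensity of at most 0.0826 in WT and at most 0.0939 in the mutant, with 1 array of each group listed at 0. Its log2 difference was -0.41 with a standard error of 0.53 and a limma adjusted p of 0.608, and it turned to 0.067 as deposited. SECE1, a subunit of the Sec translocase of the thylakoid, had a mean deposited intensity of 0.190 ± 0.0770 (SD, n = 6) across WT and 0.388 ± 0.233 (SD, n = 6) across psan. Its log2 difference was 0.31 with a standard error of 0.35 and a limma adjusted p of 0.559. It was 0.96 as deposited (limma adjusted p = 0.110) and 0.038 without psan array 6 (limma adjusted p = 0.941), where SECE1 had an intensity of 0.802 against 0.180 to 0.464 on the other psan arrays.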

How the data were processed

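The deposited table holds 1 intensity per probe and array on a linear scale; the sources used here do not say how the authors scaled these intensities. Groups and numbers 1 to 6 come from the sample titles. Of 3439 probes, 692 carried 1 symbol in the platform annotation, 870 several, and 1877 are unnamed here. Of the 692, 690 were found in the gene table of TAIR10.1, which served only for names.

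Arrays were quantile normalised, values deposited as 0 were left out, and psan was set against WT on the log2 scale with limma 3.58.1 (lmFit, eBayes, two-sided; R 4.3.3), with Benjamini-Hochberg adjustment over all 3376 tested probes and a threshold of 0.05. The fit was also run on simulated data with independent noise on each array, for probes above 0 on all arrays. The simulated arrays lacked the like pairs of the real ones, so nothing is read from that run about the p-values here. Relations within a genotype used exact permutation tests (SciPy 1.17.1), and figures matplotlib 3.10.9. Named genes were PSAN and AT1G22700, up to 4 called or else the 2 lowest-p measured genes of each list, and the 5 single-gene probes with the highest r to each gene. Both genes, the lists and the tests were chosen with earlier results of these data known. The alternatives are given in the closing section.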

Additional observations from a re-analysis of the deposited data

How the results depend on the processing

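Under the 23 alternatives run for each gene, log2 differences ran from -5.94 to -4.90 for PSAN and from 1.71 to 2.92 for AT1G22700. Both genes were selected on this contrast and their groups did not overlap, so leaving out an array could not turn the sign. Some alternatives, such as another eBayes setting or leaving out the dimmest probes, cannot change the log2 difference of either gene. Leaving out 1 array gave -5.61 to -5.20 for PSAN and 1.89 to 2.43 for AT1G22700, and leaving out WT arrays 1 and 2 together gave -5.57 and 2.55. For AT1G22700, 2.92 as deposited moved by more than the spread between arrays. Of all probes, 1010 passed, 484 higher and 526 lower, but 753 higher and 254 lower as deposited and 340 higher and 677 lower with median centring. Taking each pair of arrays as a random block left 553, and averaging pairs, which leaves fewer samples, 145. The count was 889 to 986 when each array was left out. Of the list genes 1 passed, AT1G54500, as deposited, with the probe number corrected and without WT arrays 1 and 2, and 0 to 1 when each array was left out. The r of -0.70 within psan turned to 0.021 with the probe number corrected, and ran from -0.93 to 0.071 when each psan array was left out. ATAB2, at -0.41, turned to 0.067 as deposited and to 0.0017 without WT array 2 or WT arrays 1 and 2, and ran from -0.65 to 0.0017 when each array was left out. The causes were not tested.

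With the replicate number as a block, 894 probes passed, the log2 differences were -5.46 for PSAN and 2.20 for AT1G22700, and no list gene passed. Deviations of same-numbered arrays of the 2 groups had r between -0.155 and 0.228. Of the 12 arrays, 4 were closest to the one of their own number among the 6 of the other group. These values do not settle whether the numbers pair the samples. No label says that they do, and the main fit did not pair them. The relation within WT was tested with the offset alone and not run under other scalings, since a relation was tested only over 6 values and without the offset 5 exist there.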
